A study of Mus musculus with 18 samples.

Results

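The mitotic genes described here are 48 genes whose products take a cell from the end of DNA replication through the separation of its chromosomes and its division, and they were chosen by symbol. Of the 48, 47 have a probe set that carries their symbol and no other, among 19938 genes with such a probe set, and each is given by the brightest of these (highest mean over the 18 samples). Ccnb1, which encodes cyclin B1, has none and was not analysed here. The RNA came from MLg 2908 cells (MLg), an established fibroblast line from mouse lung, for which the labels give strain ddY, age newborn, genotype WT and gender not determined in all samples. The cells were plated on a 3D collagen gel, and those that had entered it (invading fraction) were separated from those that had not (non-invading fraction) after 72 hours, with 4 samples per fraction, or 96 hours, with 5 per fraction, and measured on Mouse Gene 1.0 ST microarrays of Affymetrix. The treatment entry of every sample names TGFB1 treatment beside the invasion assay, the titles name no treatment, and the study marks the arrayed cells as not treated, so the labels do not settle what was added. As a model, all samples are 1 cell line, with samples titled as biological replicates, and the fractions differ by where the cells were found.

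Entry into mitosis is driven by the kinase CDK1 bound to A- and B-type cyclins and switched on by CDC25 phosphatases. The spindle checkpoint, a set of proteins at the kinetochores, holds the cell until every chromosome is attached to the spindle, and the anaphase promoting complex with its activator CDC20 then marks cyclins and securin for destruction, which frees separase to part the sister chromatids. Most of these genes are transcribed mainly in the G2 and M phases, so the abundance of their mRNA in a culture is widely used as a readout of proliferation. In bulk samples like these, fewer cells in division and less mitotic mRNA per dividing cell cannot be told apart.

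The transcription of many of these genes is tied to 2 short promoter elements, the cell cycle gene homology region (CHR), to which the MuvB complex binds, and the CCAAT box, to which NF-Y binds. The RefSeq promoter windows (build GRCm38.p6, from 250 bases before to 50 bases after a start site) hold 40 of the 48 genes, 39 of them measured. A CHR, searched as TTTGAA or TTCGAA, lay in the windows of 31 of the 40 (77.5%), against 20.2% of 17492 protein-coding genes. CCAAT lay in 29 (72.5%), against 42.3%, both elements in 27 (67.5%), against 8.22%, and neither in 7 (17.5%: Birc5, Mad2l1, Mybl2, Nuf2, Nusap1, Plk4 and Pttg1), against 46.7%. Both strands were searched, TTCGAA reads the same on both, and the end bases of a CHR and a CCAAT can overlap. In the 150 bases before the start alone, a CHR lay in 14 of the 40 (35%), against 10.2%, and CCAAT in 28 (70%), against 30%. A match is a description of letters and not a binding site shown to be used.

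The following 140 bases, from 110 before to 30 after the start site, are printed 5′ to 3′ on the strand of the gene. They show the arrangement in a regulator of each main step, with CHR (TTTGAA or TTCGAA) and CCAAT (or ATTGG, its reverse complement) matches in capitals, and Mad2l1 stands for the genes without either. The stretches are chr4:118437314-118437453 (minus strand) for Cdc20, chr10:69352883-69353022 (minus) for Cdk1, chr9:70421525-70421664 (minus) for Ccnb2, chr2:127831830-127831969 (minus) for Bub1, chr5:45669815-45669954 (plus) for Ncapg, chr9:61946770-61946909 (minus) for Kif23, chr11:40733408-40733547 (minus) for Hmmr and chr6:66535111-66535250 (plus) for Mad2l1.
Cdc20: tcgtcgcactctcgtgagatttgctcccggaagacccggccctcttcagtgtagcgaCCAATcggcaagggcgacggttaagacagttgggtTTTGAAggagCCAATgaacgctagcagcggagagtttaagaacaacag
Cdk1: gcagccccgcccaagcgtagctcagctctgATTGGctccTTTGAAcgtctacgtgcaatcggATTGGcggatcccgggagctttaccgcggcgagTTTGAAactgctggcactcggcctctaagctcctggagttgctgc
Ccnb2: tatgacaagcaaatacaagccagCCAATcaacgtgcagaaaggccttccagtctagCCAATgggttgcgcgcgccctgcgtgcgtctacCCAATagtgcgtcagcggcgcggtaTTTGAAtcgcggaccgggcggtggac
Bub1: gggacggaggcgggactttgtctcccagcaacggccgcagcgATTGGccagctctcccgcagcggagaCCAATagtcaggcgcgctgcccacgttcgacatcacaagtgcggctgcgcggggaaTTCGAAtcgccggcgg
Ncapg: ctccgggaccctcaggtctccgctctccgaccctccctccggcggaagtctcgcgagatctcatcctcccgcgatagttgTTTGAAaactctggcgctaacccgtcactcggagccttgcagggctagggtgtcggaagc
Kif23: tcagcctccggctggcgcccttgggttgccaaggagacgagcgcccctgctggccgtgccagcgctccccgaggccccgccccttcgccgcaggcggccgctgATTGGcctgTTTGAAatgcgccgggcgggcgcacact
Hmmr: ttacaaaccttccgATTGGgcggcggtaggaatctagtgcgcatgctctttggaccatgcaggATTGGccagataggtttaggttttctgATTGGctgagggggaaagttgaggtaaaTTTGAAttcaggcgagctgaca
Mad2l1: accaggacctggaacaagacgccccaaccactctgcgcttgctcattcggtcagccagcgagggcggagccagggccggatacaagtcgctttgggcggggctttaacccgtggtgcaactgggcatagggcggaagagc

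In Cdc20, Cdk1, Ccnb2, Bub1, Kif23 and Hmmr a CHR lies downstream of a CCAAT box and near the start site, and in Ncapg the printed stretch holds the CHR alone. Of the 40 genes, 37 have 1 window and 3 (Bub3, Ect2 and Prc1) have 2 that overlap, and a site in both was counted once, at its nearer start. In the 31 genes with a CHR, 30 of 42 sites began within 50 bases of the start site and 21 of 42 began after it. Of 64 CCAAT sites in 29 genes, 41 began in the 100 bases before the start site and 1 after it.

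**Figure D1:**
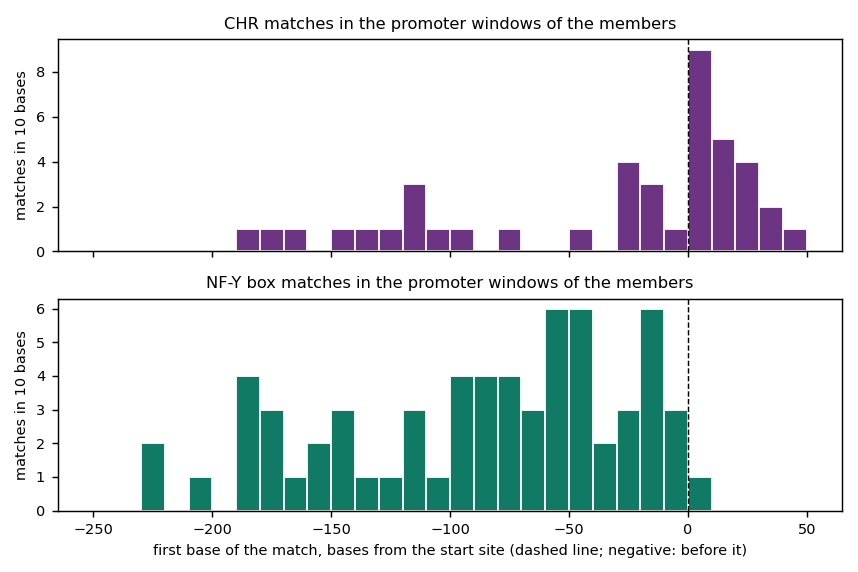
Number of CHR sites (upper panel) and CCAAT sites (lower panel, NF-Y box) per 10 bases, by the distance of their first base from the start site (horizontal axis, in bases, negative before it), in the promoter windows of the mitotic genes. Of 42 CHR sites 21 began after the start site (dashed line), against 1 of 64 CCAAT sites.

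The deposited values are log2 signals (range 2.941 to 14.698), already normalized between arrays, and the fractions were compared with limma, with p-values adjusted over all 35556 probe sets and a threshold of 0.10. The arrays of a group correlated with each other at 0.9914 to 0.9961 (Pearson's r over all probe sets). Of 11 fibroblast markers, 10 had group means of 11.69 to 13.58, while Thy1 was low, at 5.89 to 6.26. The mean over the markers of a cell type lay between 5.60 and 6.05 in all samples for 6 epithelial, between 5.11 and 5.55 for 4 endothelial and between 5.55 and 5.97 for 5 leukocyte markers. Within these lists Krt8 (group means 7.34 to 7.88) and Cd68 (6.73 to 7.51) lay above the sample medians of 6.462 to 6.647 over all probe sets. Krt8 was higher in the invading fraction at both times (log2 ratio 0.53 and 0.32). Epcam (0.18, limma's adjusted p = 0.083), Cdh1 (0.15, 0.094), Cd68 (0.56, 0.0033) and Lyz2 (0.41, 0.033) were higher at 96 hours. Of these, Epcam, Cdh1 and Lyz2 lay below the sample medians, with group means of 5.22 to 6.28. The 3 epithelial markers higher at 96 hours were 1 without replicate 4 or 5 of the invading or 3 or 5 of the non-invading fraction. Of the fibroblast markers, Col3a1 (log2 ratio -0.34 and -0.35), Col1a1 (-0.25 and -0.24), S100a4 (-0.24 at each time) and Col1a2 (-0.20 at each time) were lower in the invading fraction at 72 and 96 hours, and Pdgfrb was higher at 72 hours (0.27). At 72 hours limma's adjusted p was 0.06 for Col1a1 and 0.059 for Col1a2. The 4 fibroblast markers lower at that time were 2 without replicate 1 or 4 of the non-invading fraction. The 4 mesothelial markers averaged 7.16 to 7.27 in the invading and 7.44 to 7.56 in the non-invading samples of 72 hours. At 96 hours they averaged 7.10 to 7.31 and 7.48 to 7.65. These means were raised by Msln, with group means of 9.82 to 10.56. Wt1, Upk3b and Lrrn4 had group means of 5.90 to 6.87, beside sample medians of 6.462 to 6.647 over all probe sets. Msln and Lrrn4 were lower in the invading samples of both times. The part of other cell types in the differences of the mitotic genes was not tested.

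Some samples stood apart from their group in the mitotic genes. Replicate 4 of the non-invading fraction at 96 hours was the highest of its group in 45 of the 47 genes, against 21.3% of all genes. Replicate 5 of the invading fraction at 96 hours was the lowest of its group in 42, against 22.4% of all genes. Replicate 1 of the non-invading fraction at 96 hours was lowest in 38 (22.5%), replicate 2 of the invading fraction at 72 hours in 36 (22.1%) and replicate 4 of the non-invading fraction at 72 hours in 33 (25.9%). Mitotic genes thus shared their deviations between samples of 1 group, and the counts over all 47 genes are given below also without the samples that move them by more than 1.5 times.

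**Figure D2:**
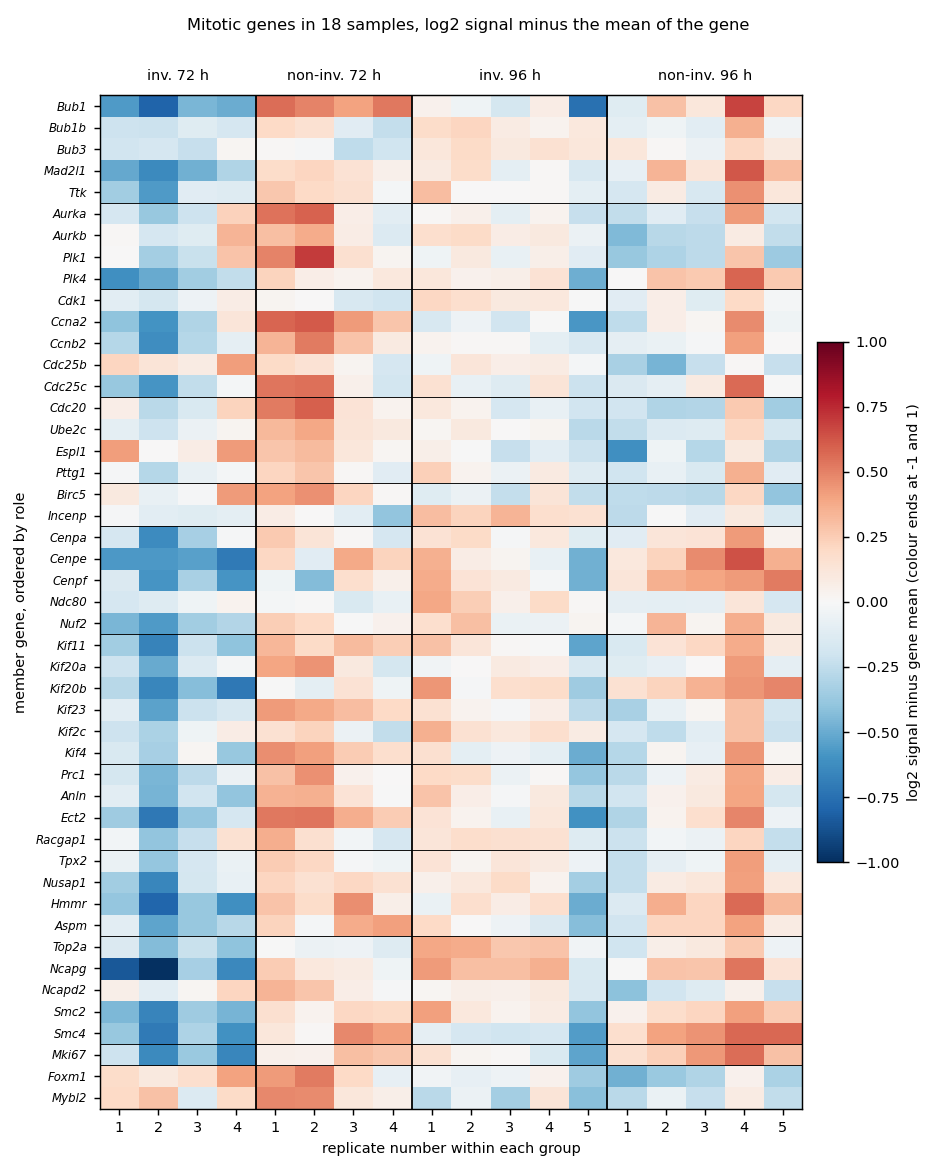
Log2 signal minus the mean of the gene over 18 samples (colour, ending at -1 and 1), with 1 row per mitotic gene, ordered by role, and 1 column per sample, ordered by group and replicate number. At 96 hours replicate 4 of the non-invading fraction is the highest of its group in 45 and replicate 5 of the invading fraction the lowest of its group in 42 of 47 genes.

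At 72 hours the mitotic genes were lower in the invading fraction. Of the 47, 27 were lower and 0 were higher (13.5% and 13.0% of all genes), 12 of them by a ratio over 1.5 (2.7% of all genes lower and 0.873% higher by that much), and 43 of the 47 log2 ratios were negative. The ratios ran from -1.07 for Bub1 to 0.16 for Cdc25b, with a median of -0.41, beside a median of 0.04 over all genes. At an unadjusted p under 0.05, limma gave 31 of 47, against 32.2% of all genes. In 25 genes every invading sample lay below every non-invading sample, as for 12.3% of all genes, and in 0 every invading sample lay above (12.5%). Averaged over the 47 genes, the 4 invading samples stood at 8.84 ± 0.13 (SD, n = 4, range 8.65 to 8.95) and the 4 non-invading ones at 9.24 ± 0.12 (SD, n = 4, range 9.09 to 9.35). Without any 1 sample the count of lower genes lay between 23 (without replicate 2 of the invading fraction) and 32 (without replicate 4 of the non-invading fraction), and 23 genes were called each time. The calls of Cdc25c, Kif20a, Tpx2 and Top2a were those that ended when single samples were left out, for each of them when replicate 2 of the invading fraction or replicate 1 or 2 of the non-invading fraction was missing.

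At 96 hours the fractions stood close together. Of the 47 genes, 5 were higher (Aurkb, Cdc25b, Incenp, Ndc80 and Kif2c) and 4 lower (Smc4, Mki67, Cenpe and Cenpf) in the invading fraction, beside 16.7% and 14.7% of all genes, and Smc4, among the lower ones, was the only 1 with a ratio over 1.5 (2.02% of all genes lower and 1.14% higher by that much). The log2 ratios ran from -0.67 for Smc4 to 0.33 for Incenp with a median of -0.02, beside 0.02 over all genes. In 1 gene every invading sample lay above (9.35% of all genes), and in 2 below (8.8%), every non-invading sample. Averaged over the 47 genes, the invading samples stood at 9.08 ± 0.15 (SD, n = 5) and the non-invading ones at 9.12 ± 0.19 (SD, n = 5). Aurkb, Cdc25b, Incenp, Smc4 and Mki67 were called whichever sample was left out, whereas Kif2c, Cenpe and Cenpf each lost the call without at least 6 of the 10 samples in turn, and Ndc80 without replicate 5 of the non-invading fraction. The count of higher genes was 14 without replicate 4 and 3 without replicate 5 of the non-invading fraction, and 9 without replicate 5 of the invading fraction. The count of lower genes was 9 without replicate 1 of the non-invading fraction and 7 without replicate 1 of the invading fraction. It was 2 without replicate 3 or 5 of the invading or replicate 3, 4 or 5 of the non-invading fraction. Centring each array on the median of all its probe sets gave 13 higher and 2 lower, but it raised the median log2 ratio of all genes by 0.119 and called 45.7% of them higher and 7.92% lower.

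**Figure D3:**
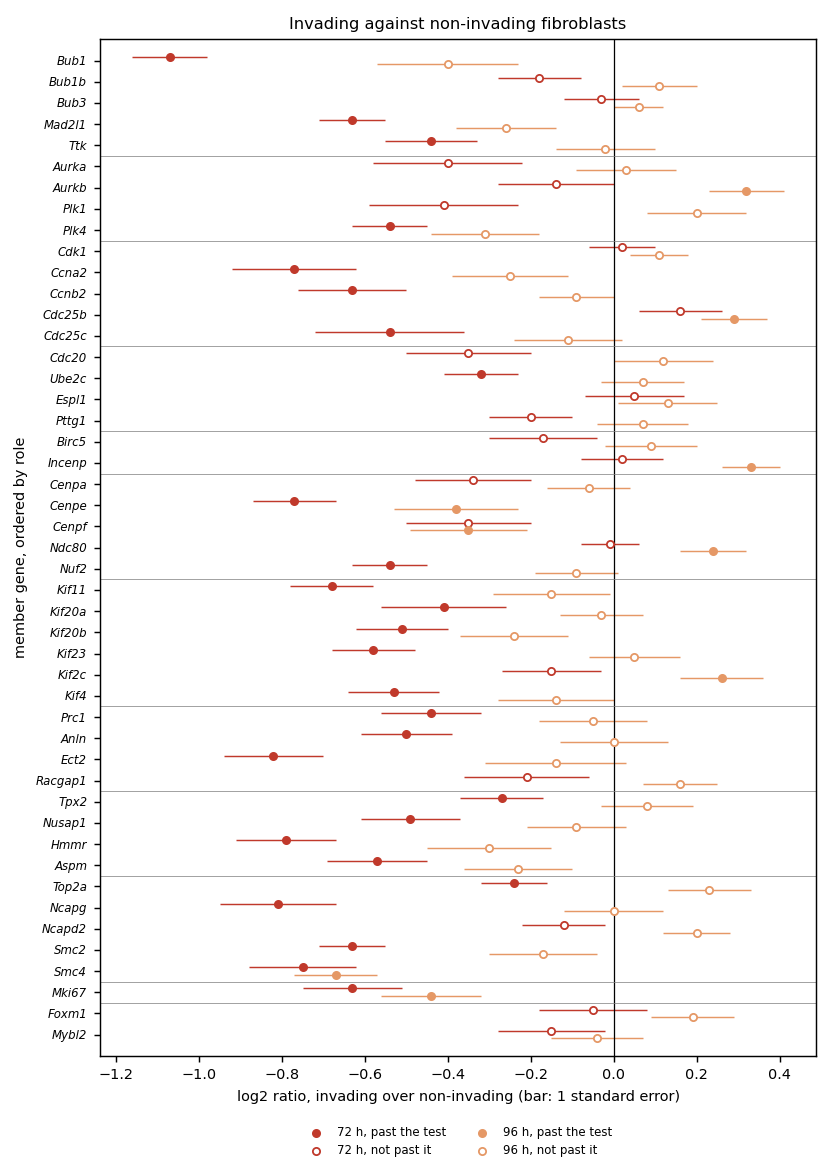
Log2 ratio of the invading over the non-invading fraction (horizontal axis, bars 1 standard error) for each mitotic gene (vertical axis, grouped by role) at 72 and 96 hours, with filled points past the test. At 72 hours 27 of 47 genes are past the test and all 27 lie left of 0, whereas at 96 hours 5 lie right and 4 left of it.

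Between 72 and 96 hours most calls in the invading fraction were rises and most calls in the non-invading fraction were falls. In the invading fraction 24 of 47 rose and 3 fell (18.2% and 16.7% of all genes), with a median log2 ratio of 0.27 (all genes -0.03), and Ncapg and Kif20b rose over 1.5-fold and none fell by as much (2.65% and 0.386% of all genes). In 11 genes every invading sample of 96 hours lay above, and in 1 below, every invading sample of 72 hours (13.3% and 10.3% of all genes). The count that rose was 13 without replicate 2 of the invading samples of 72 hours and 14 without replicate 1 of those of 96 hours, with 13 genes called in every such fit. The 3 that fell (Espl1, Foxm1 and Mybl2) were 0 without replicate 1 or 4 of the invading samples of 72 hours or replicate 5 of those of 96 hours, and 1 without replicate 3 of the latter. In the non-invading fraction 3 rose and 12 fell (15.4% and 12.2% of all genes), with a median of -0.14 (all genes -0.02). There the count that fell was 19 without replicate 4 of the non-invading samples of 96 hours, and 9 of the 12 fell whichever sample was left out. The 3 that rose (Bub3, Cenpf and Kif20b) were 1 without replicate 2 or 4 of the non-invading samples of 72 hours or replicate 4 of those of 96 hours, and 0 without replicate 5 of the latter. In 1 gene the non-invading samples of 96 hours all lay above those of 72 hours (12.2% of all genes), and in 0 all lay below (7.8%).

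The change of the fraction effect between the times was also tested itself, as the log2 ratio at 96 hours minus that at 72 hours in 1 limma fit over the 18 samples. None of the 47 genes passed (3 of all 19938 genes, 0.015%), with a lowest adjusted p of 0.25 for Ncapg. The estimates were positive for 46 of 47 genes, up to 0.81, with a median of 0.39 beside -0.01 over all genes, and 26 of 47 had an unadjusted p under 0.05 from limma, against 8.14% of all genes. Ncapg alone passed without replicate 3 of the invading samples of 72 hours or without replicate 5 of those of 96 hours. These 5 comparisons reuse the same 4 groups of samples, so their values are set side by side below and are not independent of each other.

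**Figure D4:**
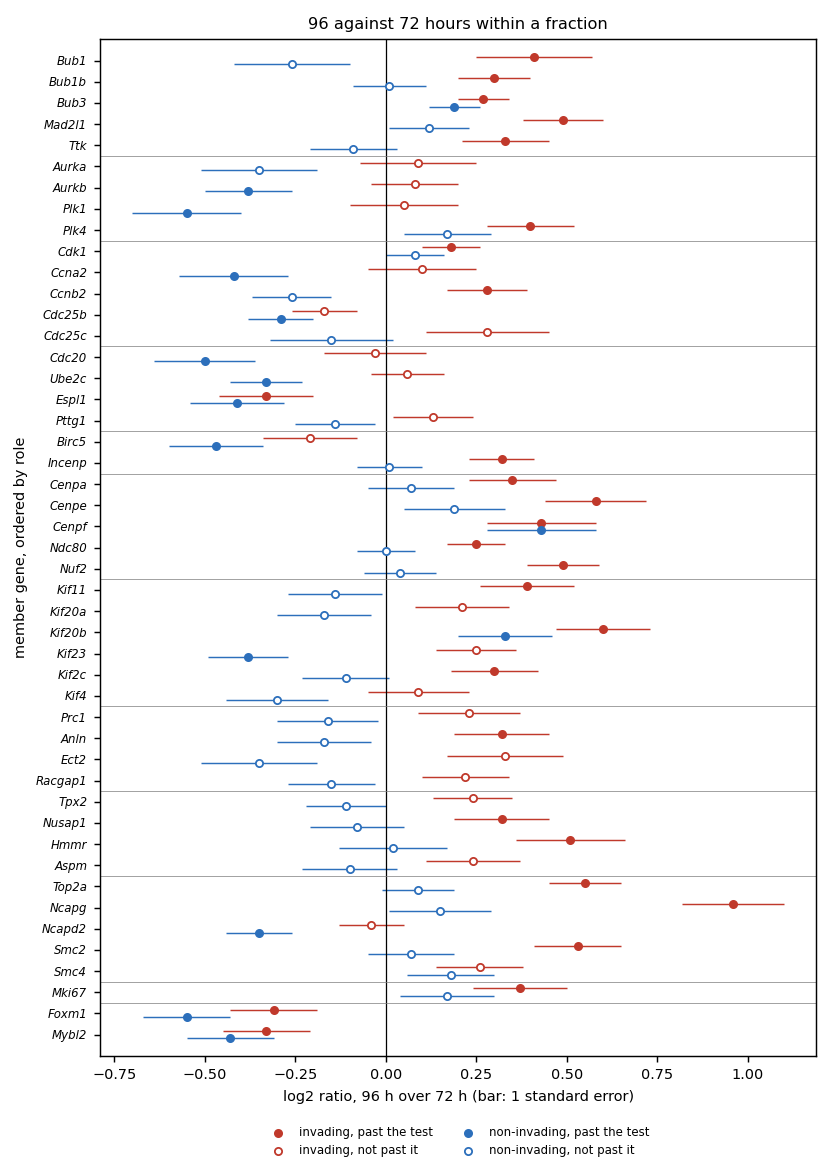
Log2 ratio of 96 over 72 hours (horizontal axis, bars 1 standard error) for each mitotic gene (vertical axis, grouped by role) within the invading and within the non-invading fraction, with filled points past the test. In the invading fraction 24 genes lie past the test to the right and 3 to the left, and in the non-invading fraction 3 to the right and 12 to the left.

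The spindle checkpoint genes gave the lowest ratio at 72 hours, 3 of 5 being lower (13.5% of all genes). By 96 hours all 5 rose in the invading fraction (18.2% of all genes). The latter count was 3 without replicate 1 or 2 of its 72-hour samples or replicate 1 of its 96-hour samples. Bub1, a kinase that recruits the other checkpoint proteins to the kinetochore, had log2 signals of 8.04, 7.80, 8.15 and 8.11 in the invading and 9.16, 9.10, 9.01 and 9.13 in the non-invading samples of 72 hours. The fractions did not overlap, and the log2 ratio was -1.07 (standard error 0.09, ratio 0.475, limma's adjusted p = 0.00031). At 96 hours Bub1 stood at 8.65, 8.56, 8.43, 8.68 and 7.86 in the invading and 8.48, 8.90, 8.72, 9.28 and 8.81 in the non-invading samples. Here the fractions overlapped, with replicate 5 of the invading fraction far below the others, and the log2 ratio was -0.40 (standard error 0.17, adjusted p = 0.11). Bub1 rose by 0.41 in the invading fraction (adjusted p = 0.066), a call that ended without any of 5 samples, replicate 2 of 72 hours and replicate 1 of 96 hours among them, and changed by -0.26 in the non-invading fraction (adjusted p = 0.27).

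Mad2l1, which inhibits CDC20 while the checkpoint is on, had log2 signals of 10.19, 10.06, 10.22 and 10.40 in the invading and 10.88, 10.91, 10.84 and 10.75 in the non-invading samples of 72 hours (log2 ratio -0.63, standard error 0.08, limma's adjusted p = 0.0016), again without overlap. By 96 hours it rose by 0.49 in the invading fraction (standard error 0.11, adjusted p = 0.0034), and the log2 ratio of the fractions was -0.26 (adjusted p = 0.13). Ttk, the kinase Mps1 that starts checkpoint signalling, was lower at 72 hours (log2 ratio -0.44, adjusted p = 0.024) and rose in the invading fraction (0.33, adjusted p = 0.06), which ended without replicate 1 or 2 of 72 hours or replicate 1 of 96 hours. Bub1b and Bub3, partners in the mitotic checkpoint complex, had log2 ratios of -0.18 and -0.03 at 72 hours and of 0.11 and 0.06 at 96 hours, none past the test. Both rose in the invading fraction, by 0.30 and 0.27 (adjusted p = 0.028 and 0.0082), with no overlap between the times.

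**Figure D5:**
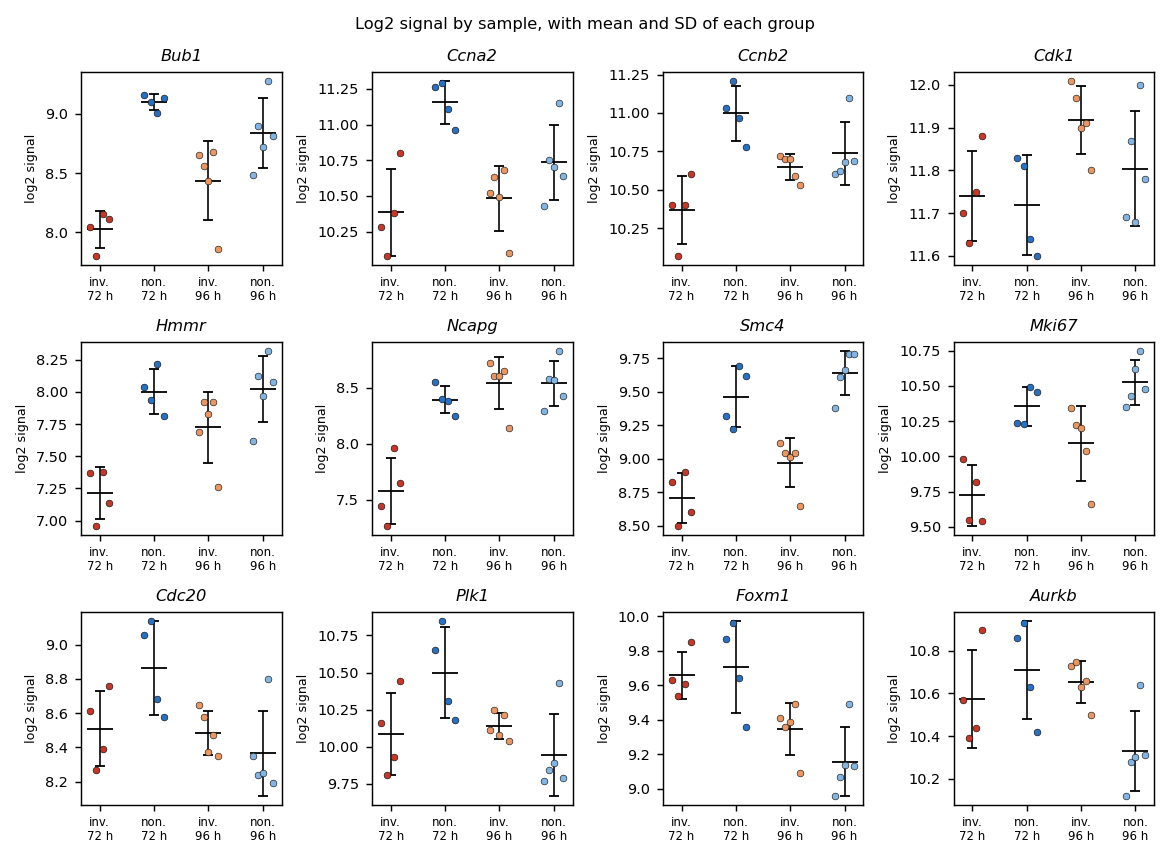
Log2 signal (vertical axis, scale differs between panels) of 12 mitotic genes in each sample, with bars for the mean and SD of each group: 4 invading and 4 non-invading samples of 72 hours, then 5 and 5 of 96 hours. Bub1, Ccna2, Hmmr and Ncapg show invading samples of 72 hours below all non-invading samples of that time, Cdk1 shows overlap at both times, and Smc4 and Mki67 show no overlap at either time.

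Of the mitotic kinases, 1 of 4 was lower at 72 hours (13.5% of all genes), and 3 were without replicate 4 of either fraction. Plk4, which starts the duplication of centrioles, was lower in the invading fraction (log2 ratio -0.54, standard error 0.09, limma's adjusted p = 0.0045), without overlap, and rose there by 0.40 until 96 hours (adjusted p = 0.024). Plk1, which acts at mitotic entry, on the spindle and in cytokinesis, had log2 signals of 10.16, 9.81, 9.93 and 10.44 in the invading and 10.65, 10.85, 10.31 and 10.18 in the non-invading samples of 72 hours. The fractions overlapped, and the log2 ratio of -0.41 (standard error 0.18) missed the threshold (adjusted p = 0.14). At 96 hours Plk1 stood at 10.11, 10.25, 10.08, 10.21 and 10.04 in the invading and 9.77, 9.84, 9.89, 10.43 and 9.79 in the non-invading samples. Apart from replicate 4, all non-invading samples lay below the invading ones, and the log2 ratio was 0.20 (adjusted p = 0.25). In the non-invading fraction Plk1 fell by 0.55 between the times (standard error 0.15, adjusted p = 0.017), whereas the invading fraction changed by 0.05 (adjusted p = 0.85).

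Aurkb, the kinase of the chromosomal passenger complex that corrects faulty attachments, gave at 96 hours 10.73, 10.75, 10.63, 10.66 and 10.50 in the invading and 10.12, 10.28, 10.30, 10.64 and 10.31 in the non-invading samples. It was higher in the invading fraction (log2 ratio 0.32, standard error 0.09, limma's adjusted p = 0.022), and the ranges overlapped through replicate 4 of the non-invading fraction. At 72 hours its log2 ratio was -0.14 (adjusted p = 0.55). It fell in the non-invading fraction by 0.38 (adjusted p = 0.034), a call that ended without replicate 2 of the non-invading samples of 72 hours. Aurka, which matures the spindle poles, had log2 ratios of -0.40 at 72 hours (adjusted p = 0.16) and 0.03 at 96 hours (adjusted p = 0.89).

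Incenp and Birc5 encode the scaffold of the passenger complex and survivin, the subunit that brings it to centromeres. Incenp stood at 8.84, 8.76, 8.87, 8.70 and 8.69 in the invading and 8.27, 8.53, 8.42, 8.63 and 8.38 in the non-invading samples of 96 hours. It was the only mitotic gene whose invading samples all lay above the non-invading ones at that time (log2 ratio 0.33, standard error 0.07, limma's adjusted p = 0.0062). It rose in the invading fraction by 0.32 (adjusted p = 0.011), also without overlap between the times, and its log2 ratio at 72 hours was 0.02 (adjusted p = 0.91). Birc5 had log2 ratios of -0.17 and 0.09 at the 2 times, neither past the test, and fell in the non-invading fraction by 0.47 (standard error 0.13, adjusted p = 0.015).

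CDK1 and its partners did not move as 1 unit. Cdk1, the catalytic subunit itself, had log2 signals of 11.70, 11.63, 11.75 and 11.88 in the invading and 11.83, 11.81, 11.64 and 11.60 in the non-invading samples of 72 hours. The fractions overlapped, and the log2 ratio was 0.02 (standard error 0.08, limma's adjusted p = 0.91). At 96 hours the ratio was 0.11 (standard error 0.07, adjusted p = 0.27). Its change of 0.18 with time in the invading fraction lay at the threshold (adjusted p = 0.099) and missed it without most single samples.

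Ccna2, the cyclin A2 of S phase and mitotic entry, had log2 signals of 10.28, 10.08, 10.38 and 10.80 in the invading and 11.26, 11.29, 11.11 and 10.96 in the non-invading samples of 72 hours. It was lower in the invading fraction without overlap (log2 ratio -0.77, standard error 0.15, limma's adjusted p = 0.0072). At 96 hours the log2 ratio was -0.25 (adjusted p = 0.21), and it fell in the non-invading fraction by 0.42 (adjusted p = 0.059), which ended without replicate 1 or 2 of 72 hours or replicate 1 or 5 of 96 hours. Ccnb2, a B-type cyclin, gave 10.40, 10.07, 10.40 and 10.60 in the invading and 11.03, 11.21, 10.97 and 10.78 in the non-invading samples of 72 hours (log2 ratio -0.63, standard error 0.13, adjusted p = 0.0089). Its fractions did not overlap at 72 hours, and at 96 hours the log2 ratio was -0.09 (adjusted p = 0.51). Of the CDC25 phosphatases, which remove the inhibitory phosphates of CDK1, Cdc25c was lower at 72 hours (log2 ratio -0.54, adjusted p = 0.069) with overlapping fractions. Cdc25b had a positive log2 ratio at 72 hours, 0.16 (adjusted p = 0.31), was higher in the invading fraction at 96 hours (0.29, adjusted p = 0.02) and fell in the non-invading fraction by 0.29 (adjusted p = 0.034). The fall was not called without replicate 1 or 2 of the non-invading samples of 72 hours.

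Genes of the step into anaphase fell with time in the non-invading fraction, 3 of 4 past the test (12.2% of all genes). Cdc20, the activator of the anaphase promoting complex, stood at 9.06, 9.14, 8.68 and 8.58 in the non-invading samples of 72 hours and 8.35, 8.24, 8.25, 8.80 and 8.19 in those of 96 hours. Replicate 4 of 96 hours lay inside the range of 72 hours and the other four below it, and Cdc20 fell by 0.50 (standard error 0.14, limma's adjusted p = 0.018). In the invading fraction it changed by -0.03 (adjusted p = 0.92), and its log2 ratios between fractions were -0.35 at 72 hours (adjusted p = 0.14) and 0.12 at 96 hours (adjusted p = 0.50). Ube2c, the ubiquitin-conjugating enzyme of the complex, was lower in the invading fraction at 72 hours (log2 ratio -0.32, adjusted p = 0.031) and fell by 0.33 in the non-invading fraction (adjusted p = 0.02). Espl1, the protease separase, fell in both fractions, by 0.33 in the invading (adjusted p = 0.066) and 0.41 in the non-invading fraction (adjusted p = 0.028). Pttg1, the separase inhibitor securin, passed no test, with log2 ratios of -0.20 and 0.07 between the fractions.

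All 5 genes of the centromere and kinetochore rose in the invading fraction between the times (18.2% of all genes). Of the 5, 3 did without replicate 2 of its 72-hour samples. Cenpe, the kinesin that carries chromosomes to the spindle equator, had log2 signals of 7.21, 7.21, 7.24 and 7.08 in the invading and 7.99, 7.67, 8.16 and 8.01 in the non-invading samples of 72 hours. The fractions were apart, with a log2 ratio of -0.77 (standard error 0.10, limma's adjusted p = 0.0016). At 96 hours Cenpe gave 8.14, 7.86, 7.81, 7.71 and 7.30 in the invading and 7.89, 8.01, 8.26, 8.42 and 8.14 in the non-invading samples. The fractions then overlapped, and it was still lower in the invading one (log2 ratio -0.38, adjusted p = 0.076). That call depended on which samples were kept. In the invading fraction Cenpe rose by 0.58 (standard error 0.14, adjusted p = 0.0049). Nuf2, an arm of the NDC80 complex that grips microtubules, was lower at 72 hours (log2 ratio -0.54, standard error 0.09, adjusted p = 0.0036) and rose in the invading fraction by 0.49 (adjusted p = 0.0012). Ndc80, its direct partner, had a log2 ratio of -0.01 at 72 hours (adjusted p = 0.92) and was higher in the invading fraction at 96 hours (0.24, adjusted p = 0.047). Cenpf, a large protein of the outer kinetochore, had a log2 ratio of -0.35 at both times (adjusted p = 0.13 and 0.084) and rose by 0.43 in both fractions (adjusted p = 0.05 and 0.057). These calls ended without replicate 2 or 4 of 72 hours or replicate 1 of 96 hours in the invading and replicate 2 of 72 hours or 5 of 96 hours in the non-invading fraction. Cenpa, the histone H3 variant that marks centromeres, had log2 ratios of -0.34 and -0.06 (adjusted p = 0.12 and 0.70) and rose in the invading fraction by 0.35 (adjusted p = 0.047), which ended without replicate 2 of the invading samples of 72 hours.

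Kinesins of the spindle were lower in the invading fraction at 72 hours in 5 of 6 cases (13.5% of all genes). Kif11, the motor that pushes the spindle poles apart, had a log2 ratio of -0.68 (standard error 0.10, limma's adjusted p = 0.0021), and Kif4, a chromosome-bound kinesin, one of -0.53 (adjusted p = 0.0087), both without overlap. Kif23, the kinesin of the centralspindlin complex, stood at 9.35, 8.92, 9.24 and 9.29 in the invading and 9.88, 9.83, 9.76 and 9.65 in the non-invading samples of 72 hours. The fractions did not overlap (log2 ratio -0.58, standard error 0.10, adjusted p = 0.0052), while at 96 hours the log2 ratio was 0.05 (adjusted p = 0.79) and Kif23 had fallen in the non-invading fraction by 0.38 (adjusted p = 0.027). Kif20b, a kinesin of late cytokinesis, was lower at 72 hours (log2 ratio -0.51, adjusted p = 0.01) and rose by 0.60 in the invading (adjusted p = 0.0021) and 0.33 in the non-invading fraction (adjusted p = 0.078). Kif20a, which carries the passenger complex to the midzone, had a log2 ratio of -0.41 at 72 hours, just past the test (adjusted p = 0.092). Kif2c, which takes microtubules apart at centromeres, had one of -0.15 at 72 hours (adjusted p = 0.45) and was higher in the invading fraction at 96 hours (0.26, adjusted p = 0.084).

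Genes of cytokinesis and spindle assembly were lower at 72 hours in 3 of 4 and 4 of 4 cases (13.5% of all genes). None of the 8 passed the test at 96 hours with all samples, where 16.7% of all genes were higher and 14.7% lower. At 96 hours 1 gene of each group was higher without replicate 4 of the non-invading fraction and 1 of cytokinesis without replicate 5 of the invading fraction. Of spindle assembly, 2 were lower without replicate 1 of the non-invading and 1 without replicate 1 of the invading fraction. Ect2, the exchange factor that activates RhoA at the cell equator, had log2 signals of 9.21, 8.85, 9.18 and 9.40 in the invading and 10.09, 10.10, 9.93 and 9.82 in the non-invading samples of 72 hours. It was lower in every invading sample (log2 ratio -0.82, standard error 0.12, limma's adjusted p = 0.0022), and at 96 hours the log2 ratio was -0.14 (adjusted p = 0.57). Anln, the ring scaffold anillin, and Prc1, which bundles the microtubules of the midzone, had log2 ratios of -0.50 and -0.44 at 72 hours (adjusted p = 0.014 and 0.035). Racgap1, the partner of Kif23 in centralspindlin, had one of -0.21 (adjusted p = 0.36). Hmmr, a microtubule-binding protein first known as a receptor for hyaluronan, gave 7.37, 6.96, 7.38 and 7.14 in the invading and 8.04, 7.94, 8.22 and 7.81 in the non-invading samples of 72 hours. The gap between the fractions was complete (log2 ratio -0.79, standard error 0.12, adjusted p = 0.0027), and Hmmr rose in the invading fraction by 0.51 (adjusted p = 0.017), to a log2 ratio of -0.30 at 96 hours (adjusted p = 0.17). Aspm, a spindle pole protein, Nusap1, which binds spindle microtubules, and Tpx2, which activates Aurora A, had log2 ratios of -0.57, -0.49 and -0.27 at 72 hours (adjusted p = 0.01, 0.018 and 0.086).

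Chromosome structure held the gene that rose most with time in the invading fraction and the gene with the largest difference between fractions at 96 hours. Ncapg, a subunit of condensin I, had log2 signals of 7.45, 7.27, 7.96 and 7.65 in the invading and 8.55, 8.40, 8.38 and 8.25 in the non-invading samples of 72 hours. At 96 hours it stood at 8.72, 8.60, 8.60, 8.65 and 8.14 in the invading and 8.29, 8.58, 8.57, 8.83 and 8.43 in the non-invading samples. The fractions were apart at 72 hours (log2 ratio -0.81, standard error 0.14, limma's adjusted p = 0.0047) and had equal means at 96 hours (0.00, standard error 0.12), and the rise in the invading fraction was 0.96 (standard error 0.14, adjusted p = 7.1e-05). Smc4, a core subunit of both condensins, stood at 8.83, 8.50, 8.90 and 8.60 in the invading and 9.32, 9.22, 9.69 and 9.62 in the non-invading samples of 72 hours. At 96 hours it stood at 9.12, 9.04, 9.01, 9.04 and 8.65 in the invading and 9.38, 9.61, 9.66, 9.78 and 9.78 in the non-invading samples. The fractions did not overlap at either time, and the log2 ratios were -0.75 (standard error 0.13, adjusted p = 0.0048) and -0.67 (standard error 0.10, adjusted p = 0.0008).

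Of the condensin subunits among the mitotic genes, Smc4 alone passed the test between the fractions at 96 hours in the fit of all samples with the deposited values and no covariate. Smc2, with which SMC4 pairs, was lower at 72 hours (log2 ratio -0.63, standard error 0.08, limma's adjusted p = 0.0014) and not past the test at 96 hours (-0.17, adjusted p = 0.36), after a rise of 0.53 in the invading fraction (adjusted p = 0.003). Ncapd2, a further subunit of condensin I, had log2 ratios of -0.12 and 0.20 (adjusted p = 0.46 and 0.11) and fell in the non-invading fraction by 0.35 (adjusted p = 0.013). At 96 hours Ncapd2 was called higher with the replicate number as a block and after a second quantile normalization. It was also called when arrays were centred on the median of all or of single-symbol probe sets. Of the 5 chromosome structure genes, 0 were higher at 96 hours with all samples. Without replicate 5 of the invading or 4 of the non-invading fraction, 2 were. Top2a, the topoisomerase that untangles sister chromatids, gave 10.47, 10.18, 10.39 and 10.21 in the invading samples of 72 hours and 11.00, 10.98, 10.88, 10.90 and 10.58 in those of 96 hours. Every sample of 96 hours lay above every sample of 72 hours, a rise of 0.55 (standard error 0.10, adjusted p = 0.00036). Between the fractions Top2a was lower at 72 hours (log2 ratio -0.24, adjusted p = 0.067) and had a log2 ratio of 0.23 at 96 hours (adjusted p = 0.12). Its dimmer probe set, with a mean signal of 4.43, passed no test.

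Mki67, which encodes the proliferation antigen Ki-67 that coats mitotic chromosomes, was lower at both times where the cells had invaded. Its log2 signals were 9.98, 9.55, 9.82 and 9.54 in the invading and 10.24, 10.23, 10.49 and 10.46 in the non-invading samples of 72 hours. They were 10.34, 10.22, 10.20, 10.04 and 9.66 in the invading and 10.35, 10.43, 10.62, 10.75 and 10.48 in the non-invading samples of 96 hours. The ranges did not overlap at either time, although at 96 hours the highest invading sample nearly reached the lowest non-invading one. The log2 ratios were -0.63 (standard error 0.12, limma's adjusted p = 0.0061) and -0.44 (standard error 0.12, adjusted p = 0.022). With Smc4 and Cenpe, it was 1 of 3 mitotic genes lower at both times. The share of all genes lower at both times was not counted. Unlike those of Smc4 and Mki67, the 96-hour call of Cenpe depended on which samples were kept.

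The transcription factors of the set, which activate many mitotic genes, did not pass the test between the fractions and fell with time in both. Foxm1, a forkhead factor of G2 and M phase genes, had log2 signals of 9.63, 9.54, 9.61 and 9.85 in the invading and 9.87, 9.96, 9.64 and 9.36 in the non-invading samples of 72 hours. At 96 hours it stood at 9.41, 9.36, 9.39, 9.49 and 9.09 in the invading and 8.96, 9.07, 9.14, 9.49 and 9.13 in the non-invading samples. The fractions overlapped at both times (log2 ratios -0.05 and 0.19, limma's adjusted p = 0.82 and 0.21), and the fall with time was 0.31 in the invading (adjusted p = 0.076) and 0.55 in the non-invading fraction (standard error 0.12, adjusted p = 0.0041). Mybl2, the MYB factor that joins the MuvB complex, had log2 ratios of -0.15 and -0.04 between the fractions, and fell with time by 0.33 in the invading (adjusted p = 0.067) and 0.43 in the non-invading fraction (adjusted p = 0.021). The calls in the invading fraction ended for both genes without replicate 1 or 4 of its 72-hour samples, or without replicate 5 of its 96-hour samples. Centring on the median of all probe sets also ended them. Without replicate 2 of its 72-hour samples or replicate 1, 2 or 3 of its 96-hour samples, 1 of the 2 calls in the invading fraction was left. Between the fractions at 96 hours, 1 of the 2 was higher without replicate 5 of the invading or replicate 4 of the non-invading fraction.

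Genes called lower were found among those with and those without a CHR. At 72 hours, 17 of the 31 measured genes with a CHR and 5 of the 8 without one were lower in the invading fraction (13.5% of all genes), with median log2 ratios of -0.41 and -0.52. Over time in the invading fraction 18 of 31 and 5 of 8 rose (18.2% of all genes), and in the non-invading fraction 7 of 31 and 2 of 8 fell (12.2% of all genes). Cdk1 and Hmmr, printed above with 2 and 1 CHR in the same 140 bases, had log2 ratios of 0.02 and -0.79 at 72 hours. Mad2l1, with neither element in its window, had one of -0.63. A part of either element in these differences was not tested.

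Other genes of mitosis, given by a list of 73 of which 71 were measured, were counted in the same comparisons. At 72 hours 35 were lower and 0 higher (49.3% and 0.0%, against 13.5% and 13.0% of all genes, median log2 ratio -0.32). At 96 hours 10 were lower and 9 higher (14.1% and 12.7%, against 14.7% and 16.7% of all genes, median -0.03). There were 5 to 18 lower and 4 to 18 higher when 1 sample was left out, with 18 lower without replicate 1 and 18 higher without replicate 4 of the non-invading fraction. Ncapg2 of condensin II and Kif18a, which limits the length of kinetochore microtubules, each had a log2 ratio of -0.83 at 72 hours (standard error 0.14 and 0.13), and Cep55, an abscission factor, one of -0.81 (standard error 0.11). At 96 hours Hmgb2, a chromatin protein, Pbk, a mitotic kinase, and Iqgap3, a scaffold protein, were higher in the invading fraction (0.58, 0.48 and 0.46, limma's adjusted p = 0.006, 0.01 and 0.0069). Between the times 34 rose and 1 fell in the invading fraction (47.9% and 1.41%, against 18.2% and 16.7% of all genes), and 21 rose without replicate 2 of 72 hours. In the non-invading fraction 8 rose and 14 fell (11.3% and 19.7%, against 15.4% and 12.2%). Of 15 measured subunits and activators of the anaphase promoting complex, at 72 hours 3 were higher and 4 lower (13.0% and 13.5% of all genes), and at 96 hours 4 were higher and 5 lower (16.7% and 14.7% of all genes). The 4 lower at 72 hours were 2 without replicate 1 or 2 of the invading fraction. At 96 hours the 4 higher were 2 without replicate 3 of the non-invading fraction, and the 5 lower were 3 without replicate 2, 3 or 5 of the invading or 2 or 4 of the non-invading fraction. Anapc7 was higher (log2 ratio 0.65 and 0.46) and Cdc27 (-0.54 and -0.42) and Anapc16 (-0.36 and -0.49) were lower at both times.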

How the data were processed

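The values are log2 signals per probe set in 18 samples, deposited by the authors after background correction, sketch-quantile normalization between arrays and summarization by RMA in Affymetrix Expression Console (version 1.2 in the submitters' processing notes). They were not transformed further. Of 35556 probe sets, 21789 carry exactly 1 gene symbol in the annotation of the array, 1621 several and 12146 none, and a gene is its brightest probe set with 1 symbol.

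The fractions were tested in R 4.3.3 by limma 3.58.1 (lmFit and eBayes), each time on its own and with no covariate. The comparisons of 96 with 72 hours and the difference between the times came from 1 fit over 18 samples. P-values were adjusted by Benjamini and Hochberg over all probe sets, and a gene was called at an adjusted p under 0.10. Rose, fell, higher and lower without a ratio refer to this call alone. The fits were tested on simulated data. The number of arrays limits the precision.

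All members are given by count, range and median. Named with values are the 5 highest and 5 lowest called members of each comparison, a fixed choice from each role, and the 3 largest called genes of each other list in each comparison between fractions. The members, the gene lists and the tests were chosen with earlier results of these data known. Replicate numbers were checked for pairing with group means removed. Equal numbers of the 2 fractions had correlations between -0.07 and 0.09 (72 hours) and between 0.05 and 0.17 (96 hours). The numbers were not taken to pair the samples, although the study names a paired t-test for receptor levels drawn from these arrays. Alternatives were other scalings, a limit to a linear signal above 100, probe sets with 1 symbol only, another choice of probe set, 1 fit over all samples, robust estimation with an intensity trend, an adjusted p under 0.05, the replicate number as a block, a shorter promoter window and leaving out each sample. Ccnb1 and the promoters of 8 members were not analysed here.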

Additional observations from a re-analysis of the deposited data

Results flagged for a closer look

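In 19 of 192 sets of values (each of the 47 genes, and their mean, in each of 4 groups) a single sample lay far from the others by Dixon's ratio, the gap to the nearest sample divided by the whole range. Chance gives about 1 in 20 sets, and the genes share their deviations, so the 19 are not independent of each other. All lie at 96 hours and 18 of them in 2 samples. Replicate 4 of the non-invading fraction was above its group with ratios of 0.855 for Bub1b, 0.802 for Aurka, 0.826 for Plk1, 0.83 for Ccnb2, 0.748 for Cdc20, 0.752 for Ube2c, 0.769 for Pttg1, 0.772 for Birc5, 0.729 for Ndc80, 0.767 for Kif20a and 0.725 for Kif2c. For example, Plk1 stood at 10.43 there and at 9.77 to 9.89 in the other four samples, and Kif20a at 10.3 against 9.75 to 9.88. Replicate 5 of the invading fraction was below its group with ratios of 0.849 for Plk4, 0.743 for Ube2c, 0.715 for Ect2, 0.846 for Racgap1, 0.724 for Top2a, 0.792 for Ncapg and 0.774 for Smc4. There Plk4 stood at 8.45 against 8.98 to 9.08 and Racgap1 at 9.52 against 9.77 to 9.82. Replicate 1 of the invading fraction was above its group with a ratio of 0.732 for Ttk, at 7.76 against 7.35 to 7.46. What sets these samples apart was not tested.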

How the results depend on the processing

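At 72 hours the count of 27 lower genes stayed within 1.5 times under every alternative, and 22 of the 27 were called in all of them. It ranged from 23 to 32, and the median log2 ratio from -0.51 to -0.32, when 1 sample was left out, with 0 higher each time. A second quantile normalization gave 25 lower, beside 25.3% of all genes higher and 11.7% lower. Centring on the median of all probe sets gave 22 lower, beside 25.2% and 9.35%. At 96 hours leaving out 1 sample gave 3 to 14 higher and 2 to 9 lower genes and medians of -0.07 to 0.07. In place of 5 higher and 4 lower, centring on the median of all probe sets gave 13 and 2. A second quantile normalization gave 7 higher and 4 lower, beside 38.6% and 12.5% of all genes. The lower genes were 7 with a signal above 100, with probe sets of 1 symbol only or in 1 fit over all 18 samples, and 2 at an adjusted p under 0.05. Leaving out 1 sample gave 13 to 29 genes that rose and 0 to 3 that fell in the invading fraction (medians 0.20 to 0.32). It gave 0 to 3 that rose and 9 to 19 that fell in the non-invading fraction (medians -0.21 to -0.07). For the difference between the times it gave 0 to 1 higher and 0 lower (medians 0.31 to 0.47). The 3 that fell in the invading fraction were 0 when centred on the median of all probe sets or at an adjusted p under 0.05, and 1 with the replicate block. The 3 that rose in the non-invading fraction were 1 and 0 under the first 2 of these. With the replicate number as a block, 25 genes were lower at 72 hours (24 of them among the 27), 6 higher and 4 lower at 96 hours (2 of them among the 4, with Bub1 and Plk4 in place of Cenpe and Cenpf), 25 rose in the invading fraction, and 3 rose and 12 fell in the non-invading fraction. At 96 hours 4 of 5 numbers matched their own partner best, and 1 of 4 at 72 hours. The block gave 0 for the difference, as without it. In the 150 bases before the start, 14 members held a CHR and 12 both elements. No gene called in a comparison was called in the opposite direction under an alternative. The median of the 47 genes at 96 hours, -0.02, took the other sign under some, up to 0.10 when centred on the median of all probe sets and 0.07 without replicate 4 of the non-invading fraction. The cause of these changes was not tested, and groups of 4 and 5 arrays limit what can be called.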

Other observations

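Genes of DNA replication and S phase were counted in the same comparisons. Of 46 measured, at 72 hours the invading fraction had 1 higher and 14 lower (median log2 ratio -0.06), and at 96 hours 11 higher and 2 lower (median 0.13), beside 13.0% and 13.5% of all genes at 72 hours and 16.7% and 14.7% at 96 hours. Pole2, a subunit of DNA polymerase epsilon, had a log2 ratio of -0.73 at 72 hours (standard error 0.12, limma's adjusted p = 0.0042), Cdc7, a kinase that fires replication origins, one of -0.58 (adjusted p = 0.0019) and Orc6 of the origin recognition complex one of -0.55 (adjusted p = 0.013). At 96 hours Cdt1, which loads the replicative helicase, had a log2 ratio of 0.79 (standard error 0.08, adjusted p = 0.00011), the chromatin assembly factor Chaf1b one of 0.52 and the helicase subunit Mcm3 one of 0.50. Between the times 17 rose and 3 fell in the invading fraction, and 6 rose and 11 fell in the non-invading fraction, beside 18.2% and 16.7% and 15.4% and 12.2% of all genes. Without replicate 4 of the non-invading fraction at 96 hours, 22 were higher at that time and 18 fell in that fraction, and the 11 that fell were 5 without replicate 1 or 2 of its 72-hour samples and 7 without replicate 1, 2 or 3 of its 96-hour samples. The 1 higher at 72 hours was 0 without replicate 2 or 4 of the invading or 3 or 4 of the non-invading fraction, and 3 without replicate 2 of the latter.

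A further list held 15 genes of the MuvB and DREAM complexes and of the RB and E2F families, not all of them subunits. The complexes bind the CHR and E2F sites of cell cycle promoters. Of the 15 genes, at 72 hours 1 was higher and 9 lower (13.0% and 13.5% of all genes). At 96 hours 1 was higher and 5 lower (16.7% and 14.7% of all genes). At 96 hours the 5 lower were 2 without replicate 3, 4 or 5 of the invading or 2 or 5 of the non-invading fraction and 3 without replicate 4 of the latter. The 1 higher was 0 without 7 of 8 samples in turn at 72 hours, and at 96 hours 0 without 6 of the 10 and 2 without replicate 4 of the non-invading fraction. Rb1, the retinoblastoma protein, was lower at both times (log2 ratio -0.97 and -0.54, limma's adjusted p = 0.0012 and 0.0016), as was Mybl1, a relative of Mybl2 (-0.81 and -0.53, adjusted p = 0.0074 and 0.063). E2f8, an E2F repressor, was lower at 72 hours (-0.65, adjusted p = 0.056), and E2f5, also of the E2F family, at both times (-0.61 and -0.32, adjusted p = 0.0039 and 0.0081). Of 16 D cyclins, their kinases, CDK inhibitors and growth arrest genes, at 72 hours 3 were higher and 4 lower (13.0% and 13.5% of all genes), and at 96 hours 6 were higher and 4 lower (16.7% and 14.7%). Gadd45a, a stress gene of growth arrest, was higher at both times (0.65 and 0.66, adjusted p = 0.0054 and 0.00035), as was Ccnd3, a D cyclin (0.41 and 0.47, adjusted p = 0.0057 and 0.012). Cdk6, a partner of the D cyclins, was lower at both times (-0.47 and -0.37, adjusted p = 0.0061 and 0.015), and Ccnd1 was higher at 96 hours (0.44, adjusted p = 0.018).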
